A study of Mus musculus with 12 samples.

Results

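T and B lymphocyte genes were followed in white adipose tissue of the inguinal depot, a pad of fat beneath the skin at the groin of mice. They are 33 genes chosen by name from the 24344 rows of the deposited gene table: 19 T cell genes, 13 B cell genes and Ltb, which both kinds of lymphocyte express. All 33 were found in the table, and all 33 were among the 13215 genes tested. Each of 12 libraries holds total RNA of 1 C57BL/6J mouse, labelled as 10 weeks of age. The animals lived for 4 weeks at room temperature and for 6 weeks at 30 °C, and were then kept at 8 °C or at 30 °C for 3 days. The 4 groups, of 3 mice each by the series design, were AKO at 8 °C, WT at 8 °C, AKO at 30 °C and WT at 30 °C. The AKO mice carry the genotype label IRE1(alpha)-/-, and a floxed Ern1 allele is named with the AKO in the title of the series. The Cre driver, the sex of the mice and any removal of the inguinal lymph node are not given in the sources used here.

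A T cell recognises antigen with a receptor that signals through the CD3 chains, the kinases Lck and Zap70 and the adaptor Lat, while CD4 or CD8 binds the presenting molecule. A B cell recognises antigen with a membrane immunoglobulin that signals through CD79A and CD79B, and its identity is kept by the transcription factor Pax5. In fat, lymphocytes lie scattered among adipocytes, and the mouse inguinal pad also encloses a lymph node packed with both cell types, with stromal cells that make the chemokines CCL19, CCL21 and CXCL13. In bulk tissue, fewer cells of a type and less RNA per cell cannot be told apart.

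Values are FPKM, fragments scaled to transcript length and to the mapped fragments of the library, so levels of different genes are per length. The number of reads is unknown. A library reached 1 FPKM in 12433 to 12818 genes, and its FPKM summed to between 594202 and 743185. Fold changes are differences of group means of log2(FPKM + 1), which understate the change of genes near 1 FPKM. "Called" means an adjusted p under 0.05 in limma, with Benjamini-Hochberg adjustment over all 13215 genes, and errors are SD over 3 mice unless given as SE. Ern1, the targeted gene, was not lower in the libraries labelled AKO. It had 6.83, 6.92 and 7.37 FPKM in AKO at 8 °C and 4.53, 5.16 and 5.2 FPKM in WT at 8 °C, and 4.5, 4.24 and 3.45 FPKM in AKO at 30 °C and 2.53, 3.32 and 2.97 FPKM in WT at 30 °C. A gene-level FPKM does not show whether an exon is missing, so these values do not check the deletion. Every direction between genotypes below therefore holds for the labels as deposited.

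Replicate 1 of AKO at 8 °C stood apart in these genes, and results that rest on it are given with and without it. In that library the 13 B cell genes summed to 2.96 times the FPKM of the 19 T cell genes, against 1.02 to 2.0 times in the other 11 libraries. Since the members themselves marked it out, results without it are not independent of that choice. Replicate 1 of WT at 8 °C was high in mammary epithelial markers, with 62 FPKM summed over 7 epithelial markers against 1.42 to 4.63 FPKM elsewhere. The early thymocyte genes Rag1, Rag2 and Ptcra, needed to assemble receptors in developing cells, were at or near 0 in every library, and Dntt, which adds bases at receptor joints, lay at 0.209 to 1.45 FPKM.

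Several members lie close together, and the regions before their start sites were read from RefSeq (GRCm38.p6). Cd3g, Cd3d and Cd3e sit within 40056 bases on chromosome 9, Cd8a (chromosome 6, 71373427 to 71379173) lies beside Cd8b1 (chromosome 6, 71322788 to 71337494), and Cd5 and Cd6 are neighbours on chromosome 19. Cd79b (chromosome 11, 106311341 to 106314762) lies 79888 bases from Ern1, the targeted gene, and the part of that position in its values was not tested. All positions are those of GRCm38. By the annotation, 18 members overlap another gene, 4 of them a coding gene (Cd247 with Pou2f1, Cd27 with Vamp1, Cd37 with Tead2 and Cd72 with Tesk1). Whether the authors counted by strand is not given in the sources used here, so reads of such neighbours may be shared.

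In all, 5 start regions are shown because their genes carry the results: a T cell kinase, a CD3 chain, the B cell receptor chain CD79A, the B cell adaptor Bank1 and Ltb, which both cell types share. Each runs 5′ to 3′ on the gene's strand and ends at the base before the annotated gene, and capitals mark matches to the motifs searched.
Lck, chr4:129573642-129573891, minus strand: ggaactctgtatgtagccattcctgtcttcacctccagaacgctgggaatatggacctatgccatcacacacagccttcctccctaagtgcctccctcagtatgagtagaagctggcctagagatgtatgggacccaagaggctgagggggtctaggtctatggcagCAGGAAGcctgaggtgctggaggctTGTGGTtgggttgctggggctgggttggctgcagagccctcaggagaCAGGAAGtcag
Cd3d, chr9:44981536-44981785, plus strand: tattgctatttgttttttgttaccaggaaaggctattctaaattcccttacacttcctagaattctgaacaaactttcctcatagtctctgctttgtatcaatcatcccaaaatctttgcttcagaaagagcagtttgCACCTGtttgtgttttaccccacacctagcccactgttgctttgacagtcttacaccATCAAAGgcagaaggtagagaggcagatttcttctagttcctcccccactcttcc
Cd79a, chr7:24897247-24897380, plus strand: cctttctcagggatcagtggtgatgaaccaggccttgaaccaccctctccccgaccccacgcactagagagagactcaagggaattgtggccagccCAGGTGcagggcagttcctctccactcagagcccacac
Bank1, chr3:136326067-136326316, minus strand: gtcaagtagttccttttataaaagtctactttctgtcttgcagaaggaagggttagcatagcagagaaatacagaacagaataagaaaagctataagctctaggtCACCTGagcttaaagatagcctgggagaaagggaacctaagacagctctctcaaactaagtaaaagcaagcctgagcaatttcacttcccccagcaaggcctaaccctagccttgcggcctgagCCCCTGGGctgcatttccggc
Ltb, chr17:35194257-35194438, plus strand: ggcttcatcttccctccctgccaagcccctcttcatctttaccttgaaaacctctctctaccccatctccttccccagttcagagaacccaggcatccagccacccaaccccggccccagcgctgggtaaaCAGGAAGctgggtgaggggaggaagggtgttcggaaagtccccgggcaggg
The capitals are CAGGAAG, an ETS motif, in Lck and Ltb, TGTGGT, a RUNX motif, in Lck, and CAGGTG, an E-box of E proteins, in Cd79a and, on the other strand as CACCTG, in Cd3d and Bank1. CTTTGAT, a motif of TCF and LEF factors, was matched on the other strand as ATCAAAG in Cd3d, and CCCNNGGG, an EBF motif, in Bank1. RefSeq listed 34 start sites for 25 of the 33 members, and the 250 bases before each were searched on both strands. The stretches shown are shorter for Cd79a (134 bases) and Ltb (182 bases), and a gene can have further start sites. Outside the stretches shown, the search also matched CAGGAAG for Cd79a and CAGGTG for Lck and Ltb. CAGGTG was in 15 of the 34 regions (44.1%), against 17.2% of all 32851 mouse start regions of that length. CAGGAAG was in 9 (26.5%, against 10.8% of all), CCCNNGGG in 5 (14.7%, against 11.8%), TGTGGT in 4 (11.8%, against 14%), CAGCTG, a second E-box, in 3 (8.82%, against 13%) and CTTTGAT in 2 (5.88%, against 3.21%). ATGCAAAT, the octamer, was in 0 of the 34 and in 1.6% of all. Sites of 1 gene overlap one another, and a match describes letters, not binding.

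Nearly every lymphocyte gene was lower in mice kept at 8 °C than in mice kept at 30 °C, in both genotypes. All 19 T cell genes were called lower at 8 °C in AKO fat and all 19 in WT fat, and so was Ltb in both. Of the 13 B cell genes, 12 were called lower in AKO fat and 11 in WT fat. Over all genes tested, 23.1% were called lower at 8 °C in AKO fat and 24.7% in WT fat. The median log2 fold change of the T cell genes was -1.19 in AKO and -1.28 in WT, and that of the B cell genes was -1.23 in AKO and -0.99 in WT, while the medians over all genes were 0.00 in AKO and -0.01 in WT.

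The 3 libraries at 8 °C lay below the 3 at 30 °C for 31 of the 33 members in AKO fat and for all 33 in WT fat, where 28.1% of all genes tested in AKO and 29.2% in WT did so. Mean FPKM of T cell genes at 8 °C was lower by 44.9% (Zap70) to 61.5% (Lef1) in AKO and by 49.6% (Cd6) to 69.9% (Lef1) in WT. For B cell genes it was lower by 38.8% (Pou2af1) to 70.2% (Fcer2a) in AKO and by 37.8% (Bank1) to 65.3% (Pax5) in WT. Without replicate 1 of AKO at 8 °C, all 13 B cell genes and all 19 T cell genes were called lower in AKO, where 21.0% of all genes were. Their medians were then -1.57 for the B cell genes and -1.05 for the T cell genes.

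**Figure D1:**
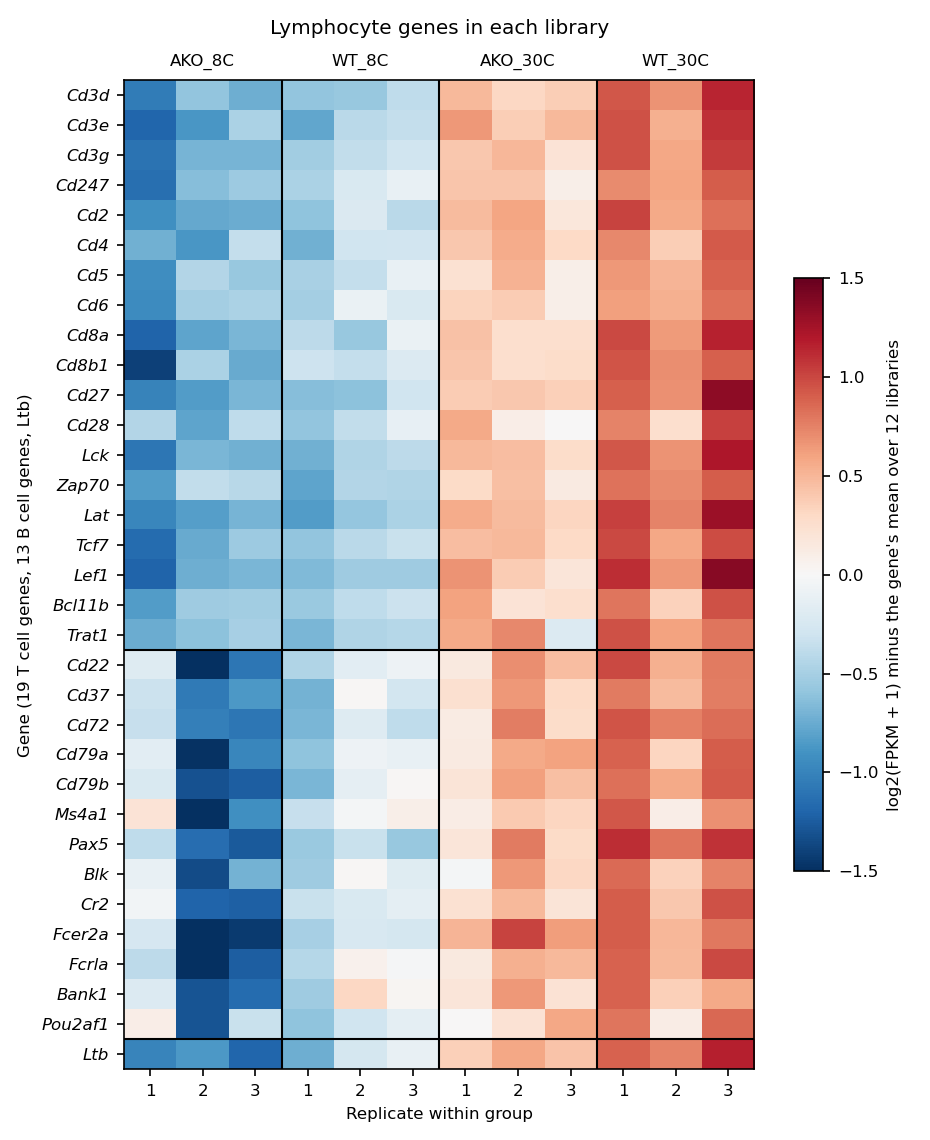
Level of each of the 33 genes in each of the 12 libraries, as log2(FPKM + 1) minus the gene's mean over the 12 libraries (colour). The columns are the replicates of AKO_8C, WT_8C, AKO_30C and WT_30C, and the rows are T cell genes, B cell genes and Ltb. Libraries at 8 °C are blue and those at 30 °C red for most genes, and replicate 1 of AKO_8C is the lowest library in 17 of the 19 T cell genes while replicate 2 or 3 of AKO_8C is the lowest in all 13 B cell genes.

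The chains of the T cell receptor complex fell together. Cd3d, Cd3e and Cd3g encode the CD3 delta, epsilon and gamma chains, and Cd247 encodes the zeta chain that carries most of the signalling motifs. At 8 °C, Cd3d had 17.7, 24.7 and 22.2 FPKM in AKO fat and 24.7, 25.1 and 28.8 FPKM in WT fat. At 30 °C, Cd3d had 53.3, 46.9 and 49.1 FPKM in AKO fat and 72.8, 60.5 and 84.3 FPKM in WT fat. Both cold groups lay below both warm groups, and replicate 3 of WT at 30 °C was the highest library. Cd3d had a log2 fold change at 8 °C of -1.18 in AKO (SE 0.14, adjusted p = 2.87e-05) and -1.42 in WT (SE 0.14, adjusted p = 1.34e-05). Cd3e changed by -1.35 in AKO and -1.38 in WT, Cd3g by -1.20 in AKO and -1.26 in WT, and Cd247 by -1.07 in AKO and -1.01 in WT, with adjusted p of at most 0.000401. Trat1, which holds the receptor complex at the surface, averaged 2.78 ± 0.322 FPKM in AKO at 8 °C, 3.05 ± 0.384 FPKM in WT at 8 °C, 6.72 ± 2.39 FPKM in AKO at 30 °C and 9.02 ± 1.18 FPKM in WT at 30 °C.

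The coreceptors CD4 and CD8 divide T cells into helper and cytotoxic lineages, and genes of both fell. At 8 °C, Cd8a had 11.1, 15.1 and 16.3 FPKM in AKO fat and 20.2, 17.7 and 24.9 FPKM in WT fat. At 30 °C, Cd8a had 36.6, 32.2 and 32.2 FPKM in AKO fat and 54.2, 42.2 and 60.6 FPKM in WT fat. Each cold library lay below every warm library, and WT lay above AKO at both temperatures with no overlap. On the log2 scale, Cd8a at 8 °C differed from its 30 °C level by -1.21 in AKO (SE 0.17, adjusted p = 0.000102) and -1.28 in WT (SE 0.17, adjusted p = 9.33e-05). At 8 °C, Cd4 had 11.4, 10.2 and 15 FPKM in AKO fat and 11.4, 15.6 and 15.7 FPKM in WT fat. At 30 °C, Cd4 had 26.1, 29.1 and 24.1 FPKM in AKO fat and 32.6, 25.5 and 37.6 FPKM in WT fat. The cold libraries again lay below the warm ones, but AKO and WT overlapped at both temperatures. Cold over warm, the log2 fold change of Cd4 was -1.07 in AKO (SE 0.17, adjusted p = 0.00033) and -1.11 in WT (SE 0.17, adjusted p = 0.000306). Cd8b1, the beta chain of CD8, changed by -1.19 in AKO and -1.14 in WT.

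Receptors that tune T cell activation followed the same course. Cd2 and Cd28 encode costimulators, Cd27 a costimulator of the TNF receptor family, and Cd5 and Cd6 scavenger-type receptors that dampen or adjust receptor signalling. At 8 °C, Cd27 had 11.4, 13 and 14.5 FPKM in AKO fat and 15, 15.3 and 19.3 FPKM in WT fat. At 30 °C, Cd27 had 31.5, 32.1 and 30.9 FPKM in AKO fat and 45.3, 39.2 and 62.4 FPKM in WT fat. Replicate 3 of WT at 30 °C was the highest, and AKO lay below WT without overlap at each temperature. The log2 fold change of Cd27, 8 °C over 30 °C, was -1.22 in AKO (SE 0.15, adjusted p = 5.35e-05) and -1.49 in WT (SE 0.15, adjusted p = 2.09e-05). Among these receptors the cold change ran from -1.22 (Cd27) to -0.76 (Cd28) in AKO and from -1.49 (Cd27) to -0.94 (Cd6) in WT. Cd28, the weakest expressed, had 3.14, 2.23 and 3.3 FPKM in AKO at 8 °C and 2.73, 3.34 and 4.15 FPKM in WT at 8 °C, against 7.32, 4.99 and 4.63 FPKM in AKO at 30 °C and 8.39, 5.66 and 10.4 FPKM in WT at 30 °C.

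Lck starts receptor signalling, Zap70 relays it and Lat gathers the downstream complex. At 8 °C, Lck had 31.6, 41.9 and 40.8 FPKM in AKO fat and 41, 49.7 and 51.7 FPKM in WT fat. At 30 °C, Lck had 95.4, 94.5 and 82.9 FPKM in AKO fat and 131, 109 and 159 FPKM in WT fat. Lck had a log2 fold change at 8 °C of -1.24 in AKO (SE 0.15, adjusted p = 3.62e-05) and -1.46 in WT (SE 0.15, adjusted p = 1.90e-05). All 6 cold values lay below all 6 warm values. At 8 °C, Lat had 39.9, 44.4 and 48.9 FPKM in AKO fat and 44.2, 53 and 57.3 FPKM in WT fat. At 30 °C, Lat had 118, 111 and 99.6 FPKM in AKO fat and 163, 134 and 195 FPKM in WT fat. Lat had the highest mean FPKM of the 19 T cell genes in each group. On the log2 scale, Lat at 8 °C differed from its 30 °C level by -1.28 in AKO (SE 0.14, adjusted p = 1.75e-05) and -1.64 in WT (SE 0.14, adjusted p = 6.49e-06). At 8 °C, Zap70 had 13.4, 19 and 18.3 FPKM in AKO fat and 13.9, 18 and 17.8 FPKM in WT fat. At 30 °C, Zap70 had 30.4, 34.2 and 27.4 FPKM in AKO fat and 44.5, 41 and 47.4 FPKM in WT fat. At 8 °C the genotypes overlapped almost fully, whereas at 30 °C every AKO value lay below every WT value. Cold over warm, the log2 fold change of Zap70 was -0.83 in AKO (SE 0.14, adjusted p = 0.000518) and -1.37 in WT (SE 0.14, adjusted p = 2.12e-05). The ratio of Zap70 to Lck FPKM was 0.424, 0.454 and 0.447 in AKO at 8 °C, above its range of 0.299 to 0.375 in the other 9 libraries. The difference between the temperatures in the genotype effect on Zap70 was 0.54 (95% interval 0.10 to 0.98, adjusted p = 0.261), which did not pass the test. Zap70 was the 1 member of 33 with an unadjusted p under 0.05 in limma for this difference. The ratio uses the same Zap70 values and is no separate support.

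Tcf7 and Lef1 encode the paired TCF factors of naive T cells, and Bcl11b encodes a factor that holds T lineage identity. At 8 °C, Lef1 had 6.46, 9.34 and 9.65 FPKM in AKO fat and 9.89, 10.9 and 10.9 FPKM in WT fat. At 30 °C, Lef1 had 26.4, 21.3 and 18.5 FPKM in AKO fat and 35.9, 26 and 43.4 FPKM in WT fat. Cold libraries lay at 6.46 to 10.9 FPKM and warm ones at 18.5 to 43.4 FPKM. The log2 fold change of Lef1, 8 °C over 30 °C, was -1.28 in AKO (SE 0.19, adjusted p = 0.000169) and -1.61 in WT (SE 0.19, adjusted p = 4.56e-05). Tcf7 changed by -1.23 in AKO and -1.29 in WT, and Bcl11b by -0.99 in AKO and -1.12 in WT, each called lower in both.

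**Figure D2:**
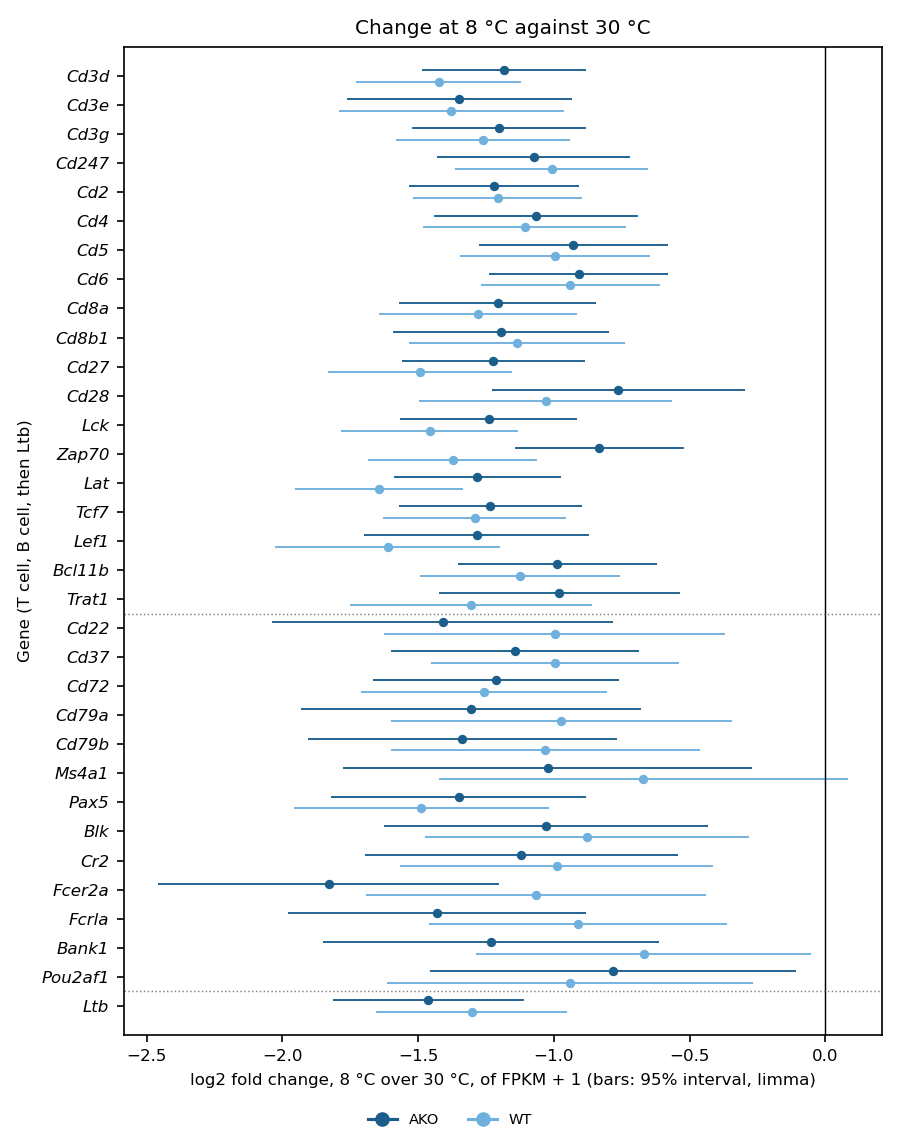
Log2 fold change at 8 °C over 30 °C of each gene (x axis, log2 of FPKM + 1) in AKO (dark) and WT (light), with 95% intervals from limma. T cell genes span -1.35 to -0.76 in AKO and -1.64 to -0.94 in WT, and B cell genes have wider intervals, with Fcer2a lowest in AKO at -1.83.

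B cell receptor genes also fell in the cold. The SE of the fold change ran from 0.208 to 0.346 over the 13 B cell genes, against 0.139 to 0.214 over the 19 T cell genes. Cd79a and Cd79b encode the signalling chains of the receptor. At 8 °C, Cd79a had 206, 82.1 and 116 FPKM in AKO fat and 151, 218 and 213 FPKM in WT fat. At 30 °C, Cd79a had 253, 342 and 349.6 FPKM in AKO fat and 425, 289 and 435 FPKM in WT fat. Replicate 1 of AKO at 8 °C lay within the WT range at that temperature, and the other AKO libraries lay below it. Cd79a had a log2 fold change at 8 °C of -1.31 in AKO (SE 0.29, adjusted p = 0.00271) and -0.97 in WT (SE 0.29, adjusted p = 0.0149). At 8 °C, Cd79b had 157, 73.8 and 77.6 FPKM in AKO fat and 114, 167 and 186 FPKM in WT fat. At 30 °C, Cd79b had 210.3, 281 and 251 FPKM in AKO fat and 325, 272 and 347 FPKM in WT fat. The pattern over the libraries was that of Cd79a. On the log2 scale, Cd79b at 8 °C differed from its 30 °C level by -1.34 in AKO (SE 0.26, adjusted p = 0.00123) and -1.03 in WT (SE 0.26, adjusted p = 0.00652). Blk, a Src family kinase of the receptor, changed by -1.03 in AKO and -0.88 in WT.

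Genes of surface receptors that raise or damp B cell signalling were lower as well. Cd22 and Cd72 encode inhibitory receptors, Cr2 the complement receptor CD21, Fcer2a the low-affinity IgE receptor CD23 of follicular B cells, Ms4a1 the CD20 antigen and Cd37 a tetraspanin. At 8 °C, Fcer2a had 41.6, 15 and 17.7 FPKM in AKO fat and 34.9, 41.9 and 41.1 FPKM in WT fat. At 30 °C, Fcer2a had 70.9, 101 and 77.5 FPKM in AKO fat and 94.4, 70.4 and 86.5 FPKM in WT fat. Of the cold AKO libraries, replicates 2 and 3 were the lowest of all 12. Cold over warm, the log2 fold change of Fcer2a was -1.83 in AKO (SE 0.29, adjusted p = 0.000271) and -1.07 in WT (SE 0.29, adjusted p = 0.00921). At 8 °C, Ms4a1 had 46.3, 13 and 20.7 FPKM in AKO fat and 31.2, 39 and 42.4 FPKM in WT fat. At 30 °C, Ms4a1 had 43.2, 52.6 and 50.3 FPKM in AKO fat and 76.9, 42.9 and 64.9 FPKM in WT fat. Replicate 1 of AKO at 8 °C lay above replicate 1 of AKO at 30 °C and above replicate 2 of WT at 30 °C. The log2 fold change of Ms4a1, 8 °C over 30 °C, was -1.02 in AKO (SE 0.35, adjusted p = 0.0272) and -0.67 in WT (SE 0.35, adjusted p = 0.126). Ms4a1 was thus called in AKO and not in WT, and the interaction was -0.35 (adjusted p = 0.766). Cd22 changed by -1.41 in AKO and -0.998 in WT, Cd72 by -1.21 in AKO and -1.26 in WT, Cd37 by -1.14 in AKO and -0.995 in WT, and Cr2 by -1.12 in AKO and -0.99 in WT, all called lower.

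Bank1 is a scaffold that links the B cell receptor to calcium release, and Fcrla is an intracellular Fc receptor-like protein of B cells. At 8 °C, Bank1 had 11, 4.61 and 5.18 FPKM in AKO fat and 8.5, 16.1 and 13.1 FPKM in WT fat. At 30 °C, Bank1 had 14.6, 20.6 and 15 FPKM in AKO fat and 24.4, 16.7 and 19.5 FPKM in WT fat. Bank1 had a log2 fold change at 8 °C of -1.23 in AKO (SE 0.28, adjusted p = 0.00354) and -0.67 in WT (SE 0.28, adjusted p = 0.0684). In WT the cold libraries still lay below the warm ones, replicate 2 at 8 °C only just. At 8 °C, Fcrla had 15.5, 6.59 and 8.13 FPKM in AKO fat and 15, 21.6 and 20.4 FPKM in WT fat. At 30 °C, Fcrla had 22.8, 30.2 and 29.3 FPKM in AKO fat and 38.8, 29.2 and 41.8 FPKM in WT fat. On the log2 scale, Fcrla at 8 °C differed from its 30 °C level by -1.43 in AKO (SE 0.25, adjusted p = 0.000615) and -0.91 in WT (SE 0.25, adjusted p = 0.0106). The 2 lower AKO libraries at 8 °C held less Fcrla than any other library.

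Pax5 commits cells to the B lineage, and Pou2af1 is the coactivator OBF-1 that octamer factors use in B cells. At 8 °C, Pax5 had 27.9, 16 and 14.7 FPKM in AKO fat and 24.7, 28.8 and 24.4 FPKM in WT fat. At 30 °C, Pax5 had 41.9, 63.9 and 44.9 FPKM in AKO fat and 80.3, 64.6 and 79.2 FPKM in WT fat. No cold library reached the lowest warm one. Cold over warm, the log2 fold change of Pax5 was -1.35 in AKO (SE 0.22, adjusted p = 0.000306) and -1.49 in WT (SE 0.22, adjusted p = 0.000195). At 8 °C, Pou2af1 had 52.5, 19.4 and 38.7 FPKM in AKO fat and 32, 39.8 and 44.2 FPKM in WT fat. At 30 °C, Pou2af1 had 49.4, 57.4 and 73.8 FPKM in AKO fat and 86.4, 53 and 90.2 FPKM in WT fat. Replicate 1 of AKO at 8 °C exceeded replicate 1 of AKO at 30 °C, so those groups overlapped. The log2 fold change of Pou2af1, 8 °C over 30 °C, was -0.78 in AKO (SE 0.31, adjusted p = 0.0524) and -0.94 in WT (SE 0.31, adjusted p = 0.0245). The ratio of Pou2af1 to Pax5 FPKM averaged 1.91 ± 0.711 in AKO at 8 °C, 1.5 ± 0.277 in WT at 8 °C, 1.24 ± 0.376 in AKO at 30 °C and 1.01 ± 0.169 in WT at 30 °C, with overlap between the temperatures in AKO and none in WT.

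The B cell count in WT rested partly on single libraries. Without replicate 1 of WT at 30 °C, 7 of the 13 were called lower, where 19.4% of all genes were, and Cd22, Cd79a, Blk and Pou2af1 missed the threshold with adjusted p of 0.0515 to 0.0813. Without replicate 1 of WT at 8 °C, the library with epithelial RNA, 8 of the 13 B cell genes and all 19 T cell genes were called, where 20.6% of all genes were.

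Ltb encodes lymphotoxin beta, the membrane partner of lymphotoxin alpha with which lymphocytes maintain lymph node stroma. At 8 °C, Ltb had 105, 115 and 91.1 FPKM in AKO fat and 126, 174 and 194 FPKM in WT fat. At 30 °C, Ltb had 268, 313 and 282 FPKM in AKO fat and 387, 352 and 472 FPKM in WT fat. The 4 groups did not overlap one another. Ltb had a log2 fold change at 8 °C of -1.46 in AKO (SE 0.16, adjusted p = 1.77e-05) and -1.30 in WT (SE 0.16, adjusted p = 6.64e-05). Of the 7 genes of the lymphotoxin pathway, 4 were called lower and 1 higher in AKO, and 6 lower and 1 higher in WT. The higher one was Ltbr, the receptor, which is borne mainly by stromal and myeloid cells rather than lymphocytes, with 0.58 in AKO and 0.74 in WT. Lta, the secreted partner, changed by -0.85 in AKO and -1.05 in WT.

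Further lymphocyte lists gave the same direction with exceptions. Of 15 further T cell signalling genes, all 15 were called lower in each genotype. Of 21 further B cell genes tested, 20 were called lower in AKO and 18 in WT. The count in WT was 11 without replicate 1 at 8 °C, 11 without replicate 1 at 30 °C and 12 without replicate 3 at 30 °C. Of 7 genes of naive and recirculating T cells, 6 were called lower in each genotype, and the exception, S1pr1, which guides exit from lymph nodes and is also strong in endothelium, had a log2 fold change of -0.01 in AKO and -0.22 in WT. Of 8 effector genes tested, 7 were called lower in AKO and 6 in WT, and 4 in AKO without its replicate 2 at 8 °C or its replicate 2 at 30 °C. The chemokine Ccl5 had 120.2, 173 and 184 FPKM in AKO at 8 °C and 142, 206 and 161 FPKM in WT at 8 °C, against 463, 426 and 408 FPKM in AKO at 30 °C and 664, 552 and 598 FPKM in WT at 30 °C. Gzmb, a granule protease of cytotoxic cells, did not pass in either, with -0.02 in AKO and 0.20 in WT.

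Regulatory T cell genes were called lower at 8 °C in 0 of 7 cases in AKO and in 7 of 7 in WT, with medians of -0.17 in AKO and -0.79 in WT. At an unadjusted p under 0.05 in limma, 1 of the 7 was lower in AKO, and 2 were called there without replicate 3 at 8 °C, 1 without replicate 3 at 30 °C. Foxp3, the lineage factor, had 1.64, 2.06 and 3.15 FPKM in AKO and 2.04, 1.85 and 2.08 FPKM in WT at 8 °C, against 3.29, 3.71 and 2.53 FPKM in AKO and 4.46, 3.6 and 4.41 FPKM in WT at 30 °C. Ctla4, an inhibitory receptor, had 8.0, 5.47 and 13.5 FPKM in AKO and 5.84, 5.04 and 4.58 FPKM in WT at 8 °C, and replicate 3 of AKO was the highest of the cold libraries in both genes. The interaction passed the test for 0 of the 7 genes, 2 having an unadjusted p under 0.05 in limma, and that of Ctla4 was 0.89 (95% interval 0.13 to 1.64, adjusted p = 0.276). The genotypes are therefore not shown to differ in these genes.

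Lymph node stroma markers were present in every library, and some of them moved with the members. The 8 stromal markers above 0 summed to 482 to 592 FPKM in AKO at 8 °C, 523 to 707 FPKM in WT at 8 °C, 816 to 966 FPKM in AKO at 30 °C and 880.4 to 1081 FPKM in WT at 30 °C. Ccl21b and Ccl21c, near-identical copies of Ccl21a, are listed at 0 in all 12 libraries, so the Ccl21a value is uncertain as to its copy. Ccl21a had 249.9, 216 and 224 FPKM in AKO at 8 °C and 214, 310.2 and 322 FPKM in WT at 8 °C, against 420, 399 and 353 FPKM in AKO at 30 °C and 481, 416 and 497 FPKM in WT at 30 °C. Of the 8 markers, 4 were called lower at 8 °C in AKO (Ccl19, Ccl21a, Glycam1 and Fut7; median of the 8, -0.50) and 2 in WT (Ccl19 and Ccl21a; median -0.19). In AKO, 6 were called without its replicate 1 at 8 °C. Over all genes tested, 23.1% were called lower in AKO and 24.7% in WT, so the stromal count in WT is near that share. Markers of lymph node sinus macrophages went the other way in WT. There, 4 of 4 were called higher at 8 °C (median 2.32), where 3211 of all 13215 genes were. In AKO, 1 of the 4 was called lower (median -0.39), and 0 without its replicate 1 at 8 °C. The 9 general macrophage markers had medians of 0.67 in WT and -0.56 in AKO. Whether the RNA of the 4 markers came from lymph node or from macrophages elsewhere in the fat was not tested.

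Cxcl13 and Madcam1 were not called in either genotype. Cxcl13, the chemokine that draws B cells into follicles, had 103, 35.5 and 63.3 FPKM in AKO at 8 °C and 74.5, 86.3 and 77.3 FPKM in WT at 8 °C, against 73, 84.5 and 92.8 FPKM in AKO at 30 °C and 101, 74.7 and 87.3 FPKM in WT at 30 °C. Its groups overlapped in both genotypes, and its log2 fold change at 8 °C was -0.42 in AKO (adjusted p = 0.222) and -0.13 in WT (adjusted p = 0.715). Madcam1, an addressin of high endothelial venules, had a log2 fold change of -0.35 in AKO and -0.12 in WT, neither called. The ratio of the summed T cell genes to the summed stromal markers was 0.608 ± 0.137 in AKO at 8 °C and 0.651 ± 0.0501 in WT at 8 °C, against 0.85 ± 0.0327 in AKO at 30 °C and 1.1 ± 0.118 in WT at 30 °C. The ratio of the summed B cell genes to those markers was 0.961 ± 0.34 in AKO at 8 °C and 1.18 ± 0.0316 in WT at 8 °C, against 1.38 ± 0.216 in AKO at 30 °C and 1.55 ± 0.113 in WT at 30 °C. The part of lymph node tissue in the fall of the lymphocyte genes was not tested.

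**Figure D3:**
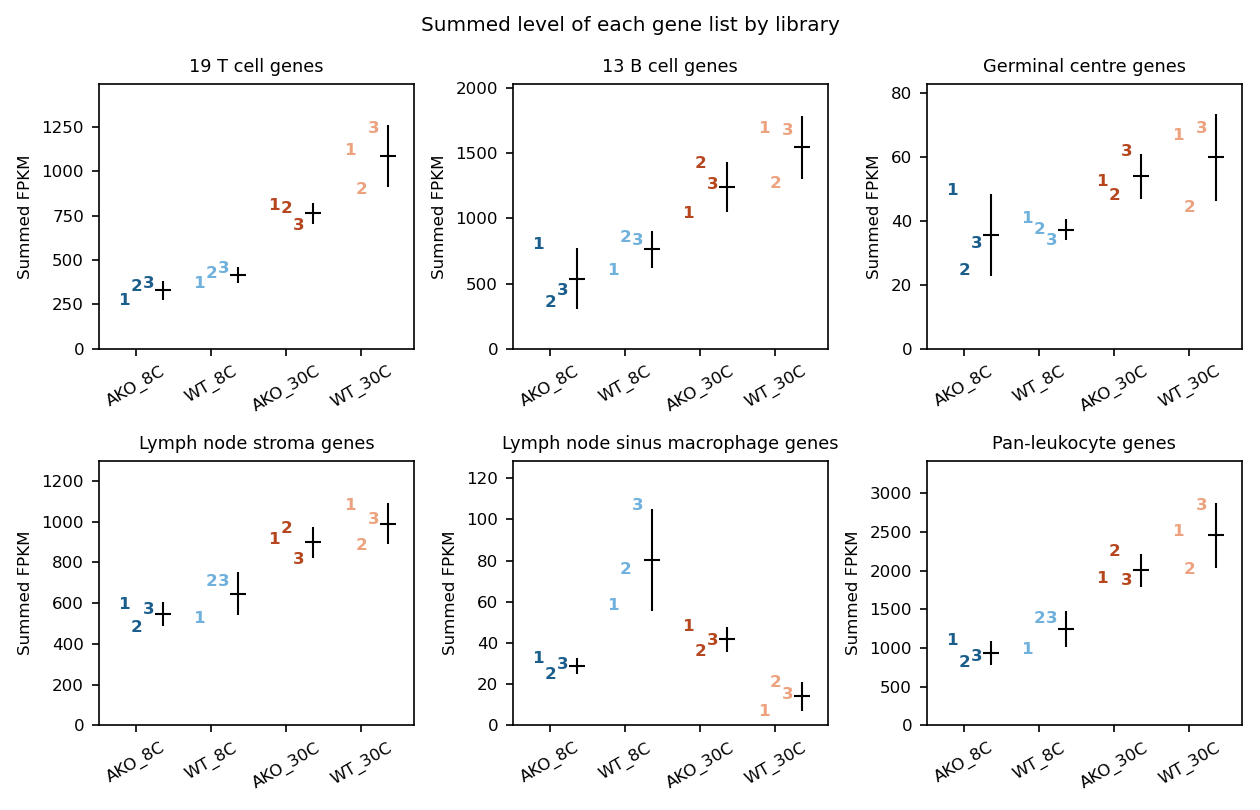
Summed FPKM of 6 gene lists in each library (numbers are replicates), with the mean and SD of each group beside them; each y axis starts at 0. T cell, B cell and pan-leukocyte sums are lower at 8 °C than at 30 °C, lymph node stroma less so, and replicate 1 of AKO_8C has the lowest T cell sum (271 FPKM) with a B cell sum of 800 FPKM.

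Germinal centre genes, expressed by B cells maturing in lymphoid follicles, summed to 49.5, 24.5 and 32.8 FPKM in AKO at 8 °C and 40.6, 37.2 and 33.9 FPKM in WT at 8 °C, against 52.3, 47.8 and 61.5 FPKM in AKO at 30 °C and 66.6, 44.2 and 68.8 FPKM in WT at 30 °C. Replicate 1 of AKO was again the highest cold library. At 8 °C, 2 of the 6 were called lower in AKO and 5 in WT, where 23.1% of all genes in AKO and 24.7% in WT were. Leaving out replicate 1 of AKO at 8 °C gave 6 of 6 in AKO, and leaving out any of the other 5 AKO libraries gave 0 or 1. In WT the count was 1 to 3 with any of replicates 1, 2 and 3 at 8 °C or replicates 1 and 3 at 30 °C left out.

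Genes shared by leukocytes were lower too, whereas macrophage and mast cell markers gave calls only higher in WT. The 8 pan-leukocyte genes were all called lower at 8 °C in both genotypes, and Ptprc (CD45) changed by -1.14 in AKO and -1.23 in WT. Of 9 macrophage markers, 2 were called lower in AKO and 3 higher in WT, and of 5 mast cell markers 0 in AKO and 4 higher in WT. By limma, 0 of the 5 mast cell markers had an unadjusted p under 0.05 in AKO. The macrophage calls depended on single libraries, from 0 to 5 in each genotype with 1 left out in turn. Of 8 adipocyte markers, 3 were called higher and 1 lower in AKO, and 7 higher in WT. Over all 13215 genes, 3498 were called higher at 8 °C in AKO and 3211 in WT. Fabp4, the most abundant, averaged 38631 ± 964 FPKM in AKO at 8 °C and 38237 ± 8366 FPKM in WT at 8 °C, against 18193 ± 193 FPKM in AKO at 30 °C and 16924 ± 2188 FPKM in WT at 30 °C. Lep, the leptin gene, was the one called lower in AKO (-2.35), and Adipoq had -0.31 in AKO (not called) and 0.46 in WT. With every library scaled to an equal FPKM sum, all 19 T cell genes were called lower in both genotypes, but that scaling could hardly remove such a call. The FPKM sums were 675321 to 743185 at 8 °C and 594202 to 643401 at 30 °C, so it lowers the 8 °C values further. It moved the median change of all genes by -0.228 in AKO and -0.1303 in WT. The part of these other cell types' RNA in the fall of lymphocyte genes was not tested.

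At 30 °C, the genotypes were compared in mice that had no cold exposure. No member was called by limma, where 0.0378% of all genes were called lower. All 33 had lower fitted means in AKO, although Fcer2a (-0.02) turned positive with upper quartile or equal sum scaling, with a median of -0.45 for the 19 T cell genes, -0.33 for the 13 B cell genes and -0.48 for Ltb, against -0.04 over all genes tested. At an unadjusted p under 0.05, 14 of the 19 T cell genes, 1 of the 13 B cell genes (Pax5) and Ltb were lower in AKO. Over all 13215 genes, 1005 were, a share near that of the B cell genes. The 3 AKO libraries lay below the 3 WT libraries for 11 T cell genes, for Pax5 and for Ltb, where 10.6% of all genes tested did so.

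Some markers of macrophages, mast cells and fibroblasts were called higher in AKO in the same comparison, where 100 of all 13215 genes were. Macrophage markers had a median of 1.21, with 9 of 9 higher and 2 called, and summed to 874 to 1311 FPKM in AKO and 585 to 700.4 FPKM in WT. The 5 mast cell markers, 3 of them called higher, had a median of 2.04 and summed to 31.7 to 53 FPKM in AKO and 6.89 to 12.2 FPKM in WT. Fibroblast markers had a median of 1.38, with 3 of 6 called higher, and summed to 473 to 888 FPKM in AKO and 187 to 222 FPKM in WT. With any 1 of the 6 libraries left out, no marker of the 3 lists was called, except 2 fibroblast markers without replicate 2 of AKO. The lymph node sinus macrophage and lymphatic endothelium lists each had 1 of 4 tested genes called higher, near the threshold. These were Cd209b (1.68, adjusted p = 0.0455 in limma) and Pdpn (1.07, adjusted p = 0.0455 in limma). The part of all these cell types in the lower lymphocyte values was not tested.

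Among T cell genes the largest differences at 30 °C were those of Lef1, Cd8a, Cd27 and Lat, whose library values are given above. Lef1 differed by -0.63 (SE 0.19, adjusted p = 0.162), Cd8a by -0.61 (SE 0.17, adjusted p = 0.127), Cd27 by -0.60 (SE 0.15, adjusted p = 0.113) and Lat by -0.57 (SE 0.14, adjusted p = 0.0937). The 95% interval of Lat ran from -0.88 to -0.26. Cd4 differed least of the T cell genes, by -0.25 (95% interval -0.63 to 0.12). The ratio of Cd4 to Cd8a FPKM was 0.713, 0.905 and 0.747 in AKO and 0.602, 0.606 and 0.621 in WT at 30 °C, with every AKO library above every WT library, and 1.03, 0.676 and 0.923 in AKO and 0.565, 0.882 and 0.631 in WT at 8 °C, where they overlapped.

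The B cell genes at 30 °C ranged from -0.58 to -0.02. Fcer2a averaged 83.1 ± 15.8 FPKM in AKO and 83.7 ± 12.2 FPKM in WT, a log2 fold change of -0.02 (95% interval -0.64 to 0.61). Pax5 averaged 50.2 ± 11.9 FPKM in AKO and 74.7 ± 8.72 FPKM in WT without overlap, a difference of -0.58 (adjusted p = 0.253). The other 11 ran from -0.45 (Cr2) to -0.26 (Bank1), all with overlapping libraries. Lymph node stroma markers had a median of -0.04, with 0 of 8 called by limma and 1 of 8 below 0.05 before adjustment (lower), and their sums, given above, overlapped between the genotypes at 30 °C.

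**Figure D4:**
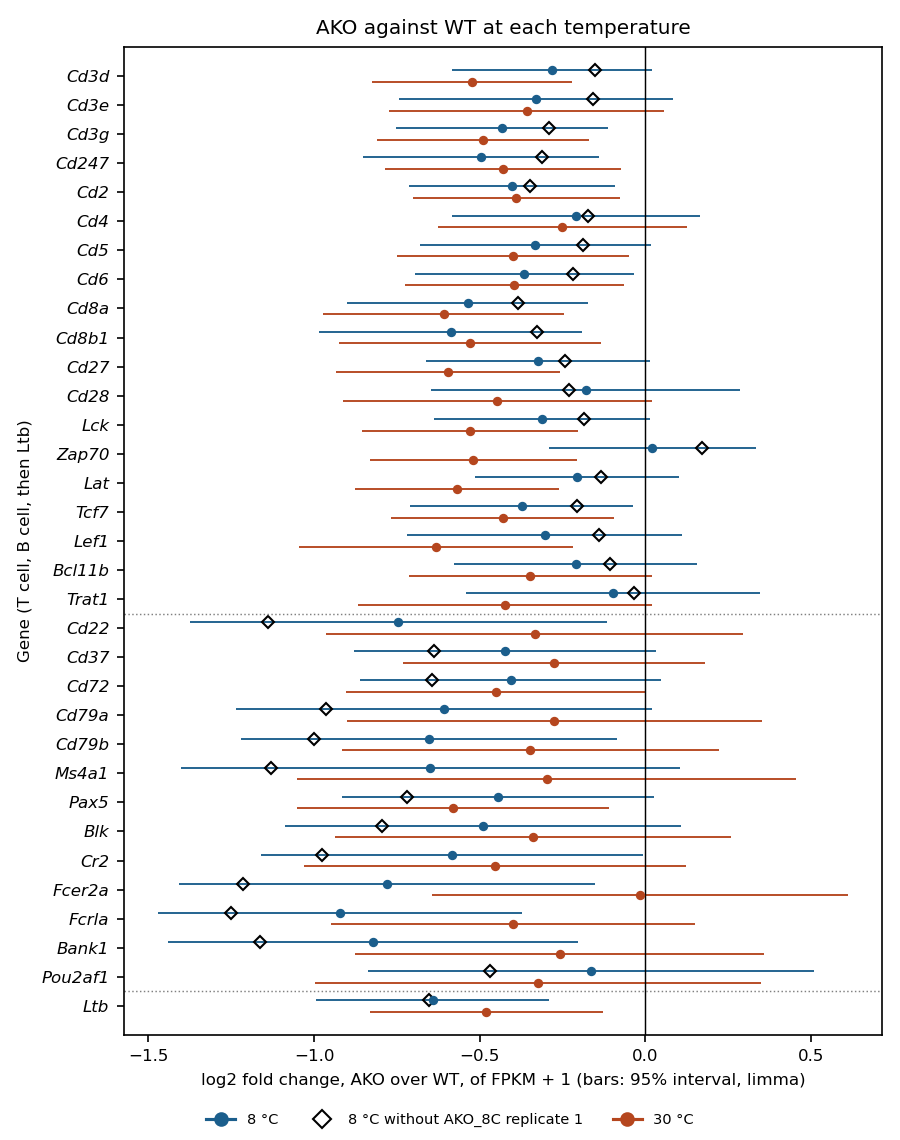
Log2 fold change of AKO over WT (x axis, log2 of FPKM + 1) for each gene at 8 °C (blue) and 30 °C (red-brown), with 95% intervals from limma; open diamonds give the 8 °C value without replicate 1 of AKO_8C. T cell genes lie between -0.63 and -0.25 at 30 °C, and without that replicate the B cell genes at 8 °C move to between -1.25 and -0.47.

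At 8 °C, the genotypes were compared after 3 days of cold. No member was called by limma with all libraries, where 0.568% of all genes were called lower. The B cell genes had a median of -0.61, the T cell genes of -0.32 and Ltb of -0.64, against 0.03 over all genes tested. At an unadjusted p under 0.05, 6 of the 13 B cell genes, 7 of the 19 T cell genes and Ltb were lower in AKO. Over all 13215 genes, 990 were. The AKO libraries lay below the WT libraries without overlap for 8 T cell genes, 0 B cell genes and Ltb, where 8.91% of all genes tested did so. For Cd3d, 1 of those 8, the nearest libraries were both 24.7 FPKM to 3 digits.

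The B cell result depended on replicate 1 of AKO at 8 °C. Without it, 7 of the 13 B cell genes were called lower in AKO, where 0.431% of all genes were, and the median of the 13 was -0.97. The B cell genes themselves marked that library out, with a sum of 800.4 FPKM against 358 and 449 FPKM in the other AKO libraries. Leaving it out therefore had to lower the AKO means, and the share over all genes does not allow for that choice. The called genes were Fcrla, Fcer2a, Bank1, Cd22, Ms4a1, Cd79b and Cr2. Fcrla, with 6.59 and 8.13 FPKM in the other AKO libraries against 15, 21.6 and 20.4 FPKM in WT, then differed by -1.25 (SE 0.20, adjusted p = 0.0204) and with it by -0.92 (SE 0.25, adjusted p = 0.0789). Fcer2a, at 15 and 17.7 FPKM in the other AKO libraries against 34.9, 41.9 and 41.1 FPKM in WT, differed by -1.21 without it (SE 0.17, adjusted p = 0.0168) and by -0.78 with it (adjusted p = 0.165). The other called genes ran from -1.16 (Bank1) to -0.97 (Cr2) without it, with adjusted p of 0.0268 to 0.0473. Of the 21 further B cell genes, 6 were then called lower (median -0.82), against 1 with all libraries, Cd40 (-0.44, adjusted p = 0.037). Cd40 itself missed the threshold with any 1 of the 6 libraries left out (adjusted p 0.0552 to 0.12).

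That library was high in B cell and germinal centre genes and low in T cell genes. Its Cd79a was 206 FPKM against 82.1 and 116 FPKM in the other AKO libraries, and its Cd8b1 was 11.3 FPKM against 22.5 and 18.2 FPKM. Its Cxcl13 was 103 FPKM against 35.5 and 63.3 FPKM, while its Ccl19 was 99.5 FPKM against 136 and 131 FPKM. The lymph node stroma markers summed to 592 FPKM in it, against 482 and 570.2 FPKM in the other AKO libraries. How much lymph node each piece of fat held was not measured, and its part in this difference was not tested.

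Among T cell genes at 8 °C the largest differences between genotypes were those of the CD8 chains. Cd8b1 had 11.3, 22.5 and 18.2 FPKM in AKO and 25.2, 24.5 and 27.3 FPKM in WT, a difference of -0.59 (SE 0.18, adjusted p = 0.108). Without replicate 2 of AKO it was the 1 T cell gene called, at -0.79 (adjusted p = 0.0465), where 0.310% of all genes were called lower. Without replicate 1 of AKO the median of the T cell genes was -0.19. Zap70 averaged 16.9 ± 3.05 FPKM in AKO and 16.6 ± 2.33 FPKM in WT (95% interval of the difference -0.29 to 0.33). Of the further T cell lists, Skap1, an adaptor (-0.57, adjusted p = 0.0405) and Nkg7, of cytotoxic granules (-0.68, adjusted p = 0.038), were called lower in AKO. Nkg7 missed the threshold with any 1 of the 6 libraries left out (adjusted p 0.0577 to 0.131). Skap1 passed without replicate 1 of WT and missed it without any of the other 5 (0.066 to 0.126).

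Ltb was lower in AKO than in WT without overlap at both temperatures but did not pass the adjusted test. Its difference was -0.64 at 8 °C, where the SE was 0.16 and the adjusted p 0.0618. Its 30 °C difference was -0.48, with an adjusted p of 0.211. Lymph node stroma markers at 8 °C had a median of -0.24 in the same comparison, with 0 of 8 called by limma and 0 of 8 at an unadjusted p under 0.05. Without replicate 1 of WT at 8 °C, where 0.303% of all genes were called lower, the 8 °C difference of Ltb was -0.82 and was called (adjusted p = 0.0409). With any other library of the 8 °C groups left out, Ltb missed the threshold (adjusted p 0.077 to 0.231).

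The interaction, which subtracts the genotype difference at 30 °C from the one at 8 °C, was called by limma for 0 of the 33 members, where 0.114% of all genes were called in either direction, and 1 member, Zap70, had an unadjusted p under 0.05. The median was 0.07 for the T cell genes and -0.31 for the B cell genes, against 0.07 over all genes. The medians without replicate 1 of AKO at 8 °C were 0.22 for the T cell genes and -0.65 for the B cell genes. The most negative value was that of Fcer2a, -0.76 (95% interval -1.65 to 0.12, adjusted p = 0.405), whose interval includes 0. A genotype difference that itself differs between the temperatures was therefore not shown for any of the 33 genes.

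The authors' deposited table for 8 °C, which holds genes with an absolute log2 fold change of at least 0.585 and a p under 0.05, lists 6 members, all lower in AKO: Fcrla, Bank1, Fcer2a, Ltb, Cd22 and Cd79b. In the authors' deposited table those values run from -0.92 (Fcrla, q = 0.000301) to -0.60 (Cd79b, q = 0.00057). The authors' deposited table for 30 °C lists 4 members, all T cell genes and all lower in AKO: Lef1 (-0.67), Cd27 (-0.64), Cd8a (-0.64) and Lat (-0.59). None of these 10 entries passed the adjusted limma test over all libraries given above, whose error is the spread between mice.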

How the data were processed

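RNA from inguinal fat of 12 mice was sequenced, and the 4 groups of 3 follow the labels. The submitters' processing notes list bcl2fastq, FastQC 0.11.3, TopHat2 2.0.14, Cufflinks 2.2.1 and the mm10 build; options and annotation are not given in the sources used here. The deposited gene table, called a count by its name, holds the authors' FPKM, since 99.986% of nonzero values are not whole and group means match the FPKM of the authors' comparison tables. Per the file headers, those tables hold the authors' log2 fold changes with p-values and q-values, and a statistic used only as a deposited score.

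Genes at 1 FPKM or more in at least 3 libraries were tested, 13215 of 24344, and 2 genes were left out because they ranged from 0 to at least 1000 FPKM between libraries. The test was limma 3.58.1 (R 4.3.3) on log2(FPKM + 1), fitted to the 4 group means of the 12 libraries together with a trend in the variance. Its p-values are two-sided and were adjusted by Benjamini-Hochberg. Depth is unknown, so no counting error is given, and p-values measure only the spread between these mice. The scripts were tested on simulated data. Figures used matplotlib 3.10.9 under Python 3.11.15.

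The 33 members, the marker lists and the tests were chosen with earlier results of these data known. All members are named, other genes where their list is described (some are not reported here), and Ern1 as the targeted gene. Alternatives were other filters, pseudocounts, scalings and variance settings, a replicate block, and each library left out in turn. Deviations of same-numbered libraries correlated above 0.1 in 3 of 12 pairs, so the numbers were not taken to pair samples. Positions are those of the GENCODE annotation of GRCm38, and sequences are RefSeq's.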

Additional observations from a re-analysis of the deposited data

Results flagged for a closer look

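Among the lymph node lists, the difference between the temperatures in the genotype effect passed limma's test for 2 markers of sinus macrophages. Whether their RNA came from lymph node was not tested. Marco, a scavenger receptor, had 9.28, 6.78 and 10 FPKM in AKO and 26.5, 32.9 and 52.6 FPKM in WT at 8 °C, and 21.2, 16 and 13.5 FPKM in AKO and 2.43, 8.34 and 5.6 FPKM in WT at 30 °C. The genotype difference at 8 °C less the one at 30 °C was -3.51 for Marco on the log2 scale (SE 0.47, adjusted p = 0.0267). Cd5l, a secreted macrophage protein, had 0.467, 1.26 and 0.372 FPKM in AKO and 5.08, 4.9 and 9.73 FPKM in WT at 8 °C, and 1.05, 0.775 and 1.54 FPKM in AKO and 0.103, 0.635 and 0.582 FPKM in WT at 30 °C. Its difference was -2.70 (SE 0.38, adjusted p = 0.027). Both genes were lower in AKO in every library at 8 °C and higher in AKO in every library at 30 °C. Leaving out 1 library at a time kept both signs, with values of -3.83 to -3.11 for Marco and -2.92 to -2.42 for Cd5l. Marco then missed the threshold in 7 of the 12 fits and Cd5l in 8, among them those without replicate 1 or 3 of AKO at 8 °C and without any 1 of the AKO libraries at 30 °C.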

How the results depend on the processing

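Of 1122 results of single genes between the temperatures under the alternatives, 1096 kept direction and side of the threshold, 16 lost a call, 10 gained one and 0 reversed. Counts of T cell genes called in the cold stayed at 19 in every alternative, for AKO and for WT. Over the libraries left out, B cell genes called in AKO ranged from 11 to 13, and in WT from 7 (without WT_30C replicate 1) to 12. Between genotypes at 8 °C, the T cell count ranged from 0 to 1 and the B cell count from 0 to 7 over the libraries left out. At 30 °C and for the interaction, both counts stayed at 0. With a replicate block, 13 B cell and 19 T cell genes were called in the cold in AKO, against 12 and 19 without, and no other member count changed by more than that.

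Small genotype differences, none called, turned sign. Fcer2a at 30 °C was 0.03 with upper quartile scaling, 0.0352 with equal sums and from -0.1634 to 0.0882 with 1 library left out in turn. Zap70 at 8 °C was -0.0282 with upper quartile scaling, -0.0412 with equal sums and from -0.0937 to 0.1708 with 1 library left out in turn. Pou2af1 at 8 °C was 0.2288 without AKO_8C replicate 2, and from -0.4685 to 0.2288 over the libraries left out. The cause was not tested. Equal sum scaling moved the median of all genes by -0.228 in AKO and -0.1303 in WT between the temperatures. The unknown depth limits the lowest genes most, Cd28, Trat1 and Bcl11b.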

Other observations

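Plasma cell genes gave calls in both directions. Of 7 tested, 1 was called higher and 2 lower at 8 °C in AKO, and 1 lower in WT. Over all genes, 23.1% in AKO and 24.7% in WT were called lower, and 3498 of 13215 in AKO were called higher. The plasma cell counts do not stand out from these shares. With 1 library left out in turn the lower count ran from 1 to 3 in AKO and from 0 to 2 in WT. Mzb1, a chaperone of antibody-secreting and marginal zone B cells, changed by -1.06 in AKO and -0.85 in WT. Jchain, the joining chain of secreted IgM and IgA, had 17.7, 7.74 and 16.1 FPKM in AKO and 8.82, 13.3 and 20 FPKM in WT at 8 °C, and 15.8, 11.6 and 48.7 FPKM in AKO and 21.9, 11 and 22.2 FPKM in WT at 30 °C, with all groups overlapping. Irf4, a factor of plasma cells that adipocytes also express, had 99.4, 16.3 and 111 FPKM in AKO and 13.9, 28.6 and 9.79 FPKM in WT at 8 °C, and 10.6, 16.1 and 11.1 FPKM in AKO and 21.6, 11.6 and 12.7 FPKM in WT at 30 °C. Its rise in AKO in the cold, 2.11 (adjusted p = 0.0109), lay in replicates 1 and 3, and without replicate 3 it missed the threshold (1.64, adjusted p = 0.0513).

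Ncr1, a receptor of natural killer cells, lay between 0.199 and 1.23 FPKM. Of 4 natural killer genes tested, 4 were called lower at 8 °C in AKO (2 without replicate 1 of AKO at 30 °C) and 2 in WT (3 without replicate 2 of WT at 8 °C or at 30 °C). Over all genes, 23.1% in AKO and 24.7% in WT were called lower. Klrd1, a receptor subunit shared with cytotoxic T cells, had 3.67, 6.13 and 6.14 FPKM in AKO and 7.37, 6.88 and 8.37 FPKM in WT at 8 °C, and 11, 8.98 and 10.5 FPKM in AKO and 18.1, 12.6 and 22.6 FPKM in WT at 30 °C.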
